A study of Mus musculus with 32 samples.

Results

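Tumours of the Pax8-BPR model were compared with tumours of the Ad-BPR model across all genes, using 12 of the 32 RNA sequencing libraries of the series. Each model gave 6 libraries, chosen by their labels. Pax8-BPR comprised 4 GEMM tumours (grown in place in a genetically engineered mouse) and 2 allografts (tumours grown after transfer into another animal). Ad-BPR comprised 2 GEMM tumours and 4 allografts. All 12 came from female C57Bl/6 mice that carried the transgene K18GT121 Tg/+ and were Trp53 fl/fl as well as Brca1 fl/fl. Pax8-BPR animals also carried Pax8-CreERT2 Tg/+. In both models Cre recombinase removed the floxed Brca1 and Trp53 genes and switched on the K18GT121 transgene, which inhibits Rb proteins. In Ad-BPR an adenovirus carrying Cre was injected into the oviduct. In Pax8-BPR tamoxifen activated a Cre that the Pax8 promoter directs to the secretory cells of the oviduct epithelium. Tumours were taken at endpoint, months after induction, and ages were not used here. The route of Cre, the cells it reached, tamoxifen and the virus all differ between the models at once and cannot be told apart. The labels do not name the GEMM tumour from which an allograft came, nor its host.

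High-grade serous carcinoma, the commonest and most lethal form of ovarian cancer, often starts in the secretory cells of the oviduct (the Fallopian tube in women). These cells depend on the transcription factor PAX8, and the carcinomas usually lose p53 function early. Many also lose repair of DNA breaks by homologous recombination, through BRCA1 or a related gene, and the Rb pathway that restrains entry into the cell cycle.

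Assigned counts ran from 14.19 to 20.34 M per library (median 17.14 M). Levels are given as CPM, counts scaled to library size, here with TMM factors shared by all 32 libraries. A CPM compares libraries for one gene and does not correct for gene length, so levels of different genes are not compared. In listings of values, GEMM tumours come before allografts, each in replicate order. Where values are given as mean ± standard deviation, n is 6 tumours per model. Folds are log2 values, Pax8-BPR minus Ad-BPR, from an edgeR quasi-likelihood fit with tumour kind (GEMM or allograft) as a covariate, with their standard error (SE). The threshold for a call was an adjusted p of 0.05 (Benjamini-Hochberg). In bulk tumour RNA, fewer cells of a type and less RNA per cell cannot be told apart.

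Of the markers of oviduct secretory cells, Pax8 was present in all 12 tumours, but the summed level of the list was below normal oviduct. The 11 genes of that list, Ovgp1 among them, summed to 1393 to 2123 CPM in Ad-BPR and 1071 to 2230 in Pax8-BPR. Normal oviduct held 4658 to 10940 CPM, most of it Ovgp1, which was low in all 12 tumours. The lower sum is therefore that of Ovgp1 and does not describe the other members. Pax8 (GRCm38 chromosome 2, 24420560 to 24475599), the defining factor of oviduct secretory cells, was at 99.6, 163, 172, 167, 23.2 and 19.6 CPM in Ad-BPR. In Pax8-BPR it was at 168, 163, 24.2, 67.2, 91.3 and 89.4 CPM. The ranges overlapped almost fully, with low tumours in both models. The fold was -0.16 ± 0.62 (SE; edgeR adjusted p = 0.951), and its 95% interval ran from -1.51 to 1.19. Normal oviduct, for reference, was at 82.1, 115 and 91.5 CPM. Epcam, an epithelial adhesion protein, was at 865 ± 147 CPM in Ad-BPR and 1079 ± 342 in Pax8-BPR. Krt18, a keratin of simple epithelia, was at 1048 ± 345 and 1034 ± 428 CPM. Pax8-BPR GEMM replicate 2 was the lowest of the 12 tumours for Krt18 (283 CPM), Epcam (533 CPM) and Wt1 (12.7 CPM). Wt1, a transcription factor typical of serous carcinoma, lay between 126 and 312 CPM in the other 11 tumours.

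The targeted genes did not separate the models. Trp53 was at 16.8, 14.7, 16.5, 19.0, 20.0 and 21.1 CPM in Ad-BPR. Pax8-BPR held 43.0, 25.0, 22.7, 29.8, 18.4 and 13.0 CPM. The 4 Pax8-BPR GEMM tumours lay above all 6 Ad-BPR tumours, and the 2 Pax8-BPR allografts did not. Normal oviduct held 83.4 to 94.6 CPM. The Trp53 fold was 0.35 ± 0.29 (SE; edgeR adjusted p = 0.683). Brca1 was at 32.9 ± 8.87 CPM in Ad-BPR and 46.1 ± 20.8 in Pax8-BPR, a fold of 0.49 ± 0.33 (SE; edgeR adjusted p = 0.614). Gene totals also count reads outside the floxed exons, and such reads check nothing. Cdkn2a, which encodes cell cycle inhibitors that accumulate when Rb is disabled, was at 160 to 258 CPM in Ad-BPR and 113 to 319 in Pax8-BPR, against at most 0.936 in normal oviduct. Rb1 itself was at 28.6 ± 7.95 and 24.2 ± 7.45 CPM.

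The Ad-BPR tumours were more alike than the Pax8-BPR tumours, which did not group by model. Spearman correlations of log2 levels averaged 0.943 over the 15 pairs of Ad-BPR tumours, 0.900 over the 15 pairs of Pax8-BPR tumours and 0.913 over the 36 pairs that cross models. These pairs share libraries, so the values are a description. Each of the 6 Pax8-BPR tumours had its highest correlation with a library of Ad-BPR, and so did each of the 6 Ad-BPR tumours. On average, too, the tumours of both models correlated more highly with Ad-BPR than with Pax8-BPR. Ad-BPR fell into closely similar sets. GEMM replicate 2 and allograft replicates 1 and 2 correlated at 0.976 to 0.979, and allograft replicates 3 and 4 at 0.968, while pairs across these sets reached only 0.911 to 0.917. Whether such tumours share a source is not in the labels; if they do, p-values are too small. None of the 14 pairs of libraries within a group (same model and kind) agreed within counting noise. Pax8-BPR GEMM replicate 2 and allograft replicate 2 had the lowest mean correlations with the other 11 tumours (0.878 and 0.897).

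**Figure D1:**
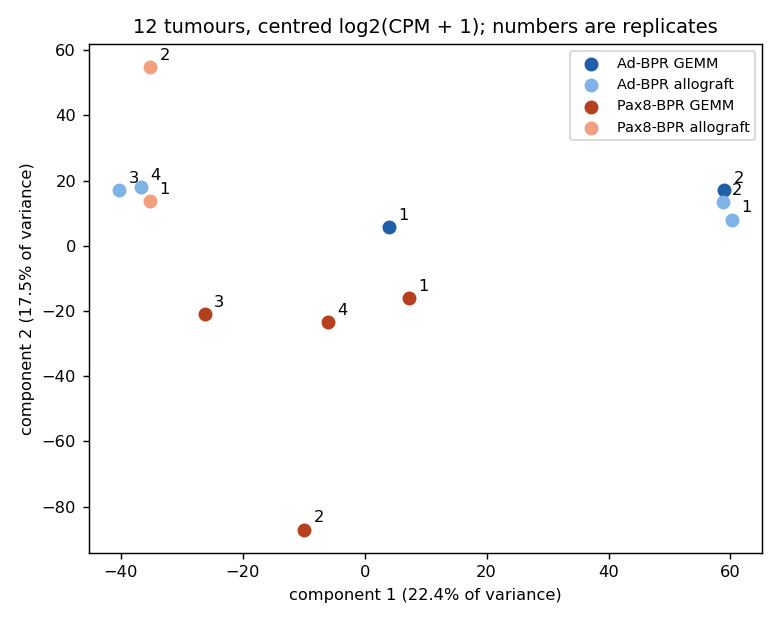
Principal components of the 12 tumours on centred log2(CPM + 1), component 1 against component 2 (arbitrary units), coloured by model and kind, with replicate numbers beside the points. Component 1 (22.4% of variance) sets Ad-BPR GEMM 2 and allografts 1 and 2 (58.7 to 60.2) apart from the other 9 tumours, and component 2 (17.5%) is widest within Pax8-BPR, from -87.1 in GEMM 2 to 54.8 in allograft 2.

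No gene was called between Pax8-BPR and Ad-BPR. edgeR called 0 of 15747 genes (0.0%) at adjusted p under 0.05, and the smallest adjusted p was 0.104, shared by Cdh23, Klf9, Col27a1, Foxo3 and Tph1. At an unadjusted p under 0.05 there were 1775 genes (11.3%), of which 953 (6.05%) had higher and 822 (5.22%) lower estimates in Pax8-BPR. Of these, 1765 (99.4%) had the same sign in GEMM tumours and in allografts, which together make up the estimate. On the same 12 libraries, DESeq2 called 261 genes (1.66%), 123 (0.781%) higher and 138 (0.876%) lower, while limma on log2(TPM + 1) and limma voom with quality weights each called 0. An edgeR fit of all 26 tumours of the series called 13 of 20000 genes (0.065%), 9 (0.045%) higher and 4 (0.02%) lower. That fit takes its spread, filter and scaling from the other models too. It also averages the within-kind differences instead of using kind as a covariate. In the 12-tumour edgeR fit, leaving out Ad-BPR GEMM replicate 1 gave 1 call, Col27a1, and leaving out any other single tumour gave none.

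The precision bears on how this count reads. The median SE of a fold was 0.304 on the log2 scale, and for 8110 genes (51.5%) the whole 95% interval lay within 2-fold either way. Estimates beyond 2-fold were found for 1381 genes (8.77%), 612 higher and 769 lower in Pax8-BPR. For 178 genes (1.13%) the 6 and 6 libraries did not overlap, 82 (0.521%) higher and 96 (0.61%) lower in Pax8-BPR.

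**Figure D2:**
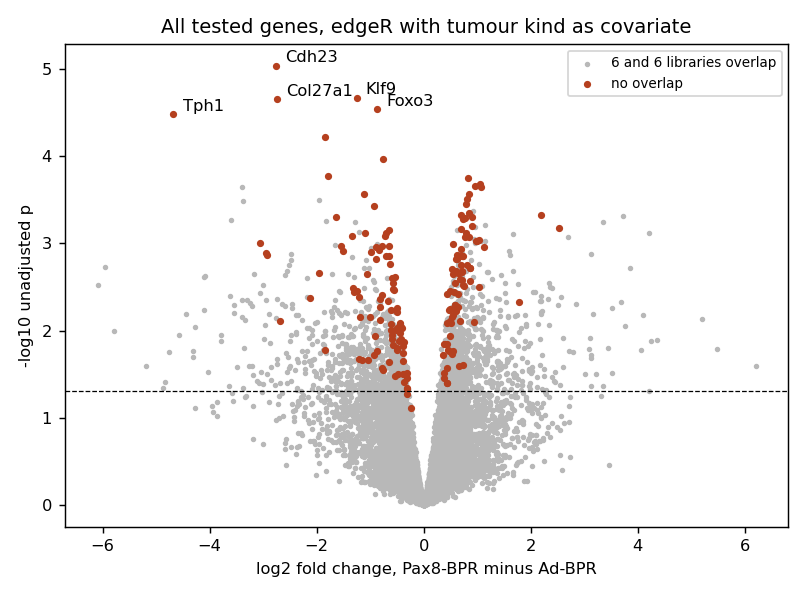
Log2 fold change (Pax8-BPR minus Ad-BPR, x axis) against -log10 unadjusted p (y axis) for the 15747 tested genes in the edgeR fit of 12 tumours, with a dashed line at the unadjusted threshold. The 178 genes whose 6 and 6 libraries do not overlap are red, and the 5 genes with the smallest adjusted p (0.104) are named, all with negative folds.

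The 5 genes with the smallest adjusted p were all at lower levels in every Pax8-BPR tumour than in any Ad-BPR tumour. Col27a1 (chromosome 4, 63214004 to 63334991), a fibrillar collagen of cartilage and other matrices, was at 70.4, 279, 200, 93.2, 133 and 119 CPM in Ad-BPR. In Pax8-BPR it was at 41.0, 18.2, 15.2, 45.04, 16.8 and 18.2 CPM, close to normal oviduct (25.7 to 38.8 CPM). Its fold was -2.73 ± 0.41 (SE; edgeR adjusted p = 0.104; DESeq2 adjusted p = 6.24e-08). Foxo3 (chromosome 10, 42181841 to 42276755), a forkhead factor held out of the nucleus by PI3K and AKT signalling, was at 175, 190.0, 187, 155, 156 and 147 CPM in Ad-BPR. In Pax8-BPR it was at 103, 83.3, 111, 83.7, 96.7 and 82.2 CPM, and in oviduct at 92.5 to 118. The Foxo3 fold was small and tight, -0.87 ± 0.13 (SE; edgeR adjusted p = 0.104; DESeq2 adjusted p = 3.28e-07).

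Klf9 (chromosome 19, 23141226 to 23168134), a zinc-finger factor induced by glucocorticoids and a partner of the progesterone receptor, was at 112, 151, 119, 119, 97.1 and 81.6 CPM in Ad-BPR. Pax8-BPR held 41.5, 38.4, 69.2, 54.2, 52.3 and 39.7 CPM, below the 77.1 to 109 of oviduct. The Klf9 fold was -1.25 ± 0.19 (SE; edgeR adjusted p = 0.104; DESeq2 adjusted p = 7.32e-06). Tph1 (chromosome 7, 46644641 to 46672537), the first enzyme of peripheral serotonin synthesis, was at 5.42, 11.4, 32.7, 8.99, 8.88 and 2.83 CPM in Ad-BPR. All 6 Pax8-BPR tumours held 0.117 to 0.795 CPM and oviduct 0.0600 to 0.289. The Tph1 fold was -4.68 ± 0.73 (SE; edgeR adjusted p = 0.104; DESeq2 adjusted p = 8.45e-09). Cdh23 (chromosome 10, 60302748 to 60696490), a cadherin best known from the tip links of hair cells, was low in both models, at 2.78 to 6.43 CPM in Ad-BPR and 0.292 to 0.778 in Pax8-BPR. Its fold was -2.76 ± 0.38 (SE). It was the single gene called when kind was left out of the fit (edgeR adjusted p = 0.0173) and when the within-kind differences were averaged (edgeR adjusted p = 0.0423).

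**Figure D3:**
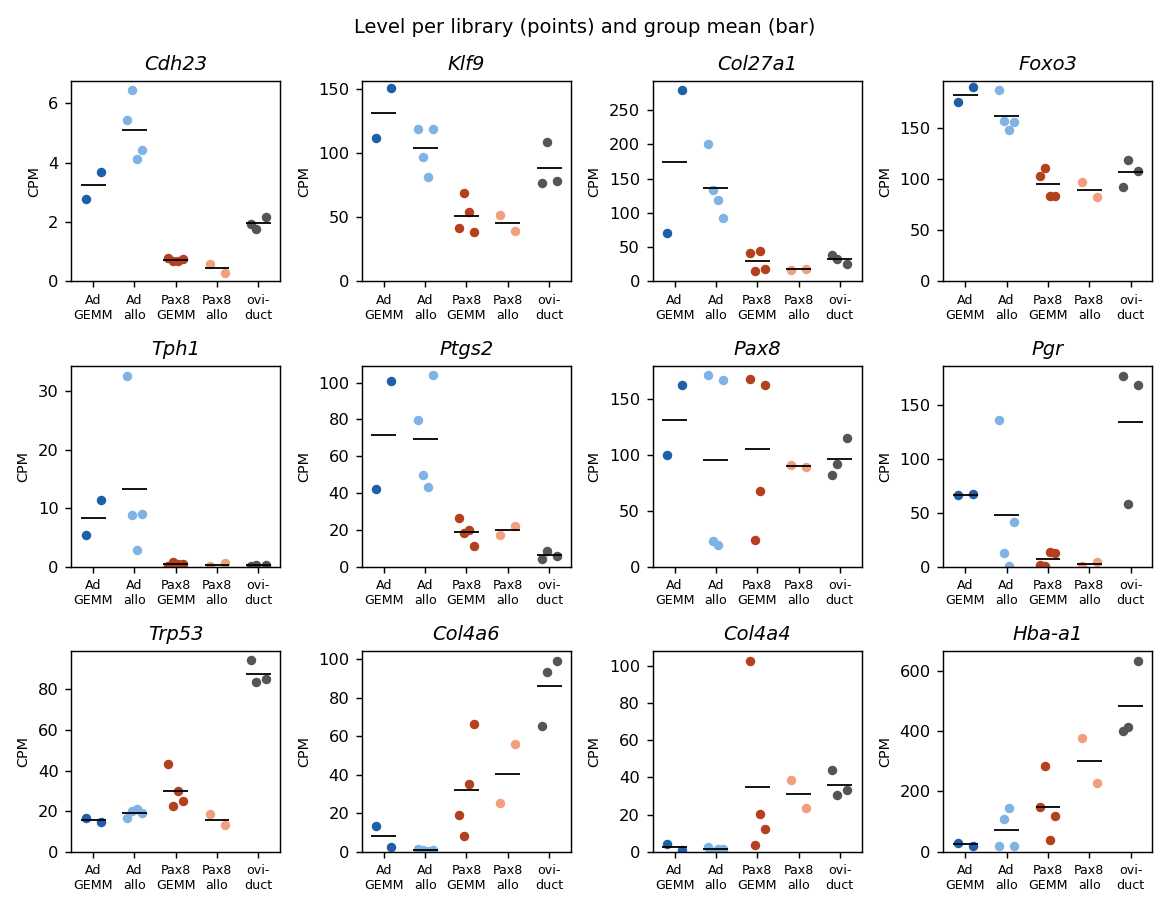
CPM (y axis, linear, from 0) of 12 genes in each library (points), with group means (bars), for Ad-BPR GEMM (n = 2), Ad-BPR allografts (n = 4), Pax8-BPR GEMM (n = 4), Pax8-BPR allografts (n = 2) and normal oviduct (n = 3). In Cdh23, Klf9, Col27a1, Foxo3, Tph1 and Ptgs2 all 6 Ad-BPR points lie above all 6 Pax8-BPR points, while in Pax8 the models overlap.

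Among genes whose higher model reached 10 CPM, 164 of 11271 (1.46%) had no overlap between the libraries, 85 (0.754%) of them lower in Pax8-BPR. The genes given here have the largest folds of these and were chosen after their values were seen. Ptgs2, the inducible cyclooxygenase of prostaglandin synthesis, was at 42.3, 101, 79.5, 104, 50 and 43.2 CPM in Ad-BPR. Pax8-BPR tumours held 26.4, 11.3, 18.4, 19.7, 17.4 and 21.9 CPM, and oviduct 3.96 to 8.61. The Ptgs2 fold was -1.84 ± 0.31 (SE; edgeR adjusted p = 0.159; DESeq2 adjusted p = 3.98e-05). Thbs2, a matrix glycoprotein that restrains blood vessel growth, was at 1043, 953, 1772, 3365, 568 and 489 CPM in Ad-BPR and at 181, 450, 393, 291, 237 and 360 in Pax8-BPR. Its fold was -1.96 ± 0.51 (SE; edgeR adjusted p = 0.276). Adamts3, a protease that trims procollagens, was at 6.71 to 35.3 CPM against 0.771 to 6.50. Kcnn3, a calcium-activated potassium channel, was at 4.26 to 19.8 CPM against 0.235 to 2.90. The Kcnn3 fold was -2.94 ± 0.71 (SE; edgeR adjusted p = 0.250). Shc2, a signalling adaptor, was at 17.6 ± 3.09 CPM against 6.77 ± 3.30. Stk25, a kinase, was at 138 ± 42.6 CPM against 62.5 ± 10.9. Fam213a, a redox protein, was at 216 ± 101 and 60.3 ± 13.6 CPM, and the microtubule-linked genes Eml1 and Ttll7 had folds of -1.10 and -1.19. The X-linked genes Atrx, a chromatin remodeller, and Hdac8, a histone deacetylase, had folds of -1.34 and -1.32.

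In the other direction, 79 genes (0.701%) with at least 10 CPM were higher in every Pax8-BPR tumour than in any Ad-BPR tumour. Npl, an enzyme that breaks down sialic acid, had the largest fold, 2.52 ± 0.55 (SE; edgeR adjusted p = 0.250). It was at 1.72 to 2.92 CPM in Ad-BPR and at 8.62, 12.6, 6.52, 3.17, 4.81 and 41.5 in Pax8-BPR. The highest value was in allograft replicate 2, and without that tumour the fold was 1.44. Ly9, a receptor of lymphocytes, was at 2.50 to 9.17 CPM against 9.54 to 33.1, a fold of 2.19 ± 0.46 (SE; edgeR adjusted p = 0.250). Most of the others had folds near 1 with little spread. Among them were Bcs1l, an assembly factor of respiratory complex III, Ndufa9, a subunit of complex I, Tmem126a, an assembly factor of complex I, Mrps35, a mitochondrial ribosome protein, and Msto1, which acts in mitochondrial fusion and distribution. Ndufa9 was at 43.9, 39.2, 40.3, 39.8, 25.1 and 28.7 CPM in Ad-BPR and at 58.4, 61.3, 52.8, 58.9, 74.5 and 88.4 in Pax8-BPR. Its fold was 0.91 ± 0.19 (SE; edgeR adjusted p = 0.250). Bcs1l was at 5.74 ± 1.20 and 11.6 ± 1.77 CPM, and Msto1 at 26.2 ± 6.09 and 46.4 ± 5.04. Emg1, a ribosome biogenesis factor, was at 42.1 ± 8.84 and 80.8 ± 13.7 CPM, and Lpcat3, which remodels membrane phospholipids, at 35.7 ± 9.66 and 70.1 ± 18.2. Emg1 and Lpcat3 overlap at their ends on chromosome 6, and whether strand was used in counting is not known here, so part of their reads may be shared.

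The fit of all 26 tumours added calls that the edgeR fit of the 12 tumours did not give. DESeq2 on the 12 tumours alone had called each of these genes as well. Its 9 higher genes included 2 predicted genes and Bend5, Col4a6, Spcs2, Bcs1l, Zfand2b, Ndufa9 and Dnpep. Its 4 lower genes included Insr, Stk25 and Zcchc3. Insr, the insulin receptor, was at 77.8 to 118 CPM against 36.2 to 76.2, without overlap. Its fold was -0.84 ± 0.20 (SE; edgeR adjusted p = 0.250 in 12 tumours and 0.0243 in 26; DESeq2 adjusted p = 0.0096 in 12 tumours).

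Col4a6 belongs to the collagen IV family, which forms the sheet of basement membranes. Its 6 genes lie in head-to-head pairs that share a promoter region, and the chains assemble as fixed trimers. The ubiquitous trimer is made of the Col4a1 and Col4a2 products, and tissue-restricted trimers are made from the products of Col4a3 to Col4a6. The family was singled out after its values were seen. The sequences between the starts of the restricted pairs are shown because both genes of each pair had higher estimates in Pax8-BPR. They are RefSeq promoter sequences (GRCm38.p6), each 5′ to 3′ on the strand of the first named gene, with matches to the GC box GGGCGG on either strand in capitals. The first is the whole gap of 71 bases between the Col4a4 and Col4a3 starts (chr1:82586850-82586920, minus strand). The others are the stretches upstream of Col4a6 (chrX:141474077-141474326, minus strand) and of Col4a5 (chrX:141475169-141475384, plus strand), within a gap of 1308 bases.
Col4a4 to Col4a3: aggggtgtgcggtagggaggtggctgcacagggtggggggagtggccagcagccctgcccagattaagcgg
Col4a6 upstream: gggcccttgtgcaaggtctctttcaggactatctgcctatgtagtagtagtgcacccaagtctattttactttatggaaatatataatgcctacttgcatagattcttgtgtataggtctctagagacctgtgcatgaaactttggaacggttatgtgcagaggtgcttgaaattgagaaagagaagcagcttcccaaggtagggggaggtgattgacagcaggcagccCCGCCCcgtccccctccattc
Col4a5 upstream: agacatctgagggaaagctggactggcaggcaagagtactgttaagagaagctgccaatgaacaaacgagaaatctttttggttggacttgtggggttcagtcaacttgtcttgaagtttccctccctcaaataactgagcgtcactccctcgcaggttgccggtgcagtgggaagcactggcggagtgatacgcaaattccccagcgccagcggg
The Col4a6 stretch holds 1 match and the other 2 stretches hold 0. Among all promoters of the table, 32.7% of upstream stretches as long as that of Col4a6 hold the motif, 31.6% at the length of Col4a5 and 20.7% at that of the gap.

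Col4a4 was at 3.99, 0.739, 2.51, 1.42, 0 and 1.66 CPM in Ad-BPR and at 103, 12.2, 3.82, 20.1, 38.5 and 23.5 in Pax8-BPR. Only the lowest Pax8-BPR tumour overlapped the highest Ad-BPR tumour. Its fold was 4.20 ± 0.94 (SE; edgeR adjusted p = 0.250; DESeq2 adjusted p = 0.000597). Col4a3 was at 0 to 3.91 CPM against 0.771 to 70.1, and GEMM replicate 1 held the highest value for both genes of this pair. Col4a6 was at 13.2, 2.67, 1.40, 1.01, 0.837 and 0.444 CPM in Ad-BPR and at 19.2, 66.2, 8.06, 35.4, 25.3 and 55.9 in Pax8-BPR. Again 1 Pax8-BPR tumour, GEMM replicate 3, lay below the highest Ad-BPR tumour. The Col4a6 fold was 3.72 ± 0.79 (SE; edgeR adjusted p = 0.250 in 12 tumours and 0.0243 in 26). Its partner Col4a5 was at 25.9 ± 18.3 CPM and 77.1 ± 36.5, a fold of 1.58 ± 0.49 (SE; edgeR adjusted p = 0.325). Normal oviduct held 65.5 to 99.2 CPM of Col4a6 and 30.6 to 44.2 of Col4a4. The ubiquitous genes had folds of -0.25 ± 0.37 (Col4a1) and -0.21 ± 0.46 (Col4a2), with signs that depended on the tumours used.

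Of the 35 gene lists compiled for pathways and cell types, 0 had a member called by edgeR and 10 had at least 1 called by DESeq2. Each is described by its counts at an unadjusted p under 0.05 and its median fold, in the edgeR fit. Over all tested genes the median fold was 0.03, and DESeq2 called 1.66%. At the unadjusted threshold 6.05% of all tested genes were higher and 5.22% lower, the shares beside which each list count stands. The proliferation list stood on one side. Of 35 cell cycle and E2F target genes, 32 had estimates above 0, and 8 passed the unadjusted threshold as higher and 0 as lower. The median was 0.36, but it was 0.09 within GEMM tumours and 0.63 within allografts. Foxm1, a transcription factor of the later cell cycle, was at 79.4, 72.7, 74.0, 84.3, 69.6 and 72.3 CPM in Ad-BPR. The Pax8-BPR values were 49.4, 104, 136, 152, 179 and 174 CPM. GEMM replicate 1 was the lowest of all 12 tumours and the other 5 Pax8-BPR tumours lay above all of Ad-BPR. The Foxm1 fold was 0.91 ± 0.25 (SE; edgeR adjusted p = 0.298). The other 7 were Ccnb1, Ccne1, Mcm10, E2f8, Mcm3, Aurka and Tyms, with folds from 0.49 to 0.86. The count was 16 without Pax8-BPR GEMM replicate 1, and 5 without Pax8-BPR GEMM replicate 4 or either of Ad-BPR allograft replicates 1 and 2. It was 4 and 3 without Pax8-BPR allograft replicates 1 and 2 in turn, and 1 without Ad-BPR allograft replicates 1, 2 and 4 together. For 20 homologous recombination and Fanconi genes, 2 were higher and 0 lower, with a median of 0.22. Their median was 0.03 within GEMM tumours and 0.50 within allografts. Fancd2, a protein of the Fanconi pathway, had a fold of 0.80. The count of higher repair genes was 7 without Pax8-BPR GEMM replicate 1. It was 0 without Ad-BPR allograft replicate 1 or 2 or Pax8-BPR allograft replicate 2. Without Pax8-BPR GEMM replicate 2 and allograft replicate 2 together, 0 repair genes were higher and 2 lower.

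Interferon response genes, which cells switch on after sensing viral or own nucleic acid, also lay on one side. Of 22 genes, 20 had estimates above 0, 6 passed the unadjusted threshold as higher and 0 as lower, with a median of 0.73. Isg15, a ubiquitin-like protein, was at 25.0, 10.1, 9.64, 16.4, 44.5 and 19.1 CPM in Ad-BPR and at 65.0, 166, 30.3, 67.2, 90.8 and 21.5 in Pax8-BPR. Its fold was 1.81 ± 0.59 (SE; edgeR adjusted p = 0.339). The others were the chemokine Cxcl10 (1.86), Mx1 (1.38), Ifit1 (1.38), the Isg15 protease Usp18 (1.3) and the factor Irf7 (1.19). The summed level of the list was 396 to 2190 CPM in Ad-BPR and 777 to 2090 in Pax8-BPR. Ad-BPR allograft replicate 3 held the 2190, and without it 15 of the 22 genes passed. Without Pax8-BPR allograft replicate 1 the count was 3, and without Ad-BPR allograft replicates 1, 2 and 4 together it was 0. Within kinds the median was 1.39 in GEMM tumours and 0.26 in allografts.

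Most of the matrix genes had lower estimates in Pax8-BPR. Of 18 fibroblast and extracellular matrix genes, 14 had estimates below 0, and 5 passed the unadjusted threshold as lower and 0 as higher, with a median of -0.62 (-0.28 within GEMM tumours and -0.89 within allografts). DESeq2 called 3 of them. These 5 were Thbs2, Col5a2, Pdgfra, Thy1 and Col1a2. Pdgfra, the growth factor receptor of fibroblasts, was at 264, 187, 292, 226, 26.6 and 43.2 CPM in Ad-BPR, with allograft replicates 3 and 4 apart from the rest. The Pax8-BPR values were 105, 76.1, 38.8, 107, 10.6 and 14.7 CPM. The Pdgfra fold was -2.46 ± 0.72 (SE; edgeR adjusted p = 0.322; DESeq2 adjusted p = 0.00633). The summed level of the list was 10640 to 28850 CPM in Ad-BPR, against 6482 to 14630 in Pax8-BPR. Its part in the folds of Col27a1, Thbs2 and Adamts3 was not tested. Of 19 metalloproteinase and inhibitor genes, 6 were lower and 0 higher, with a median of -0.49. The median was 0.18 within GEMM tumours and -1.29 within allografts, of opposite sign. DESeq2 called 2 members, Mmp10 (adjusted p = 0.0111) and Mmp7 (0.0261). Mmp10, a stromelysin, was at 33.7, 246, 58.9, 482, 5.21 and 4.61 CPM in Ad-BPR and at 0.730 to 25.9 in Pax8-BPR. Mmp7, the matrilysin of epithelial cells, was at 102, 214, 50.4, 40.4, 4.83 and 40.5 CPM in Ad-BPR. Pax8-BPR held 2.40, 13.8, 2.39, 0.806, 18.1 and 15.8 CPM of Mmp7. For both proteases Ad-BPR allograft replicate 3 lay within the Pax8-BPR range. The other 4 were Mmp9 (-2.37), Mmp13 (-2.08), Adamts5 (-1.5) and the inhibitor Timp2 (-0.56). The matrix count was 8 without Ad-BPR GEMM replicate 1 and 3 without Ad-BPR GEMM replicate 2, and the protease count was 3 without either Pax8-BPR allograft. Without Ad-BPR allograft replicates 1, 2 and 4 together they were 3 and 2, and the protease median was -0.06.

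**Figure D4:**
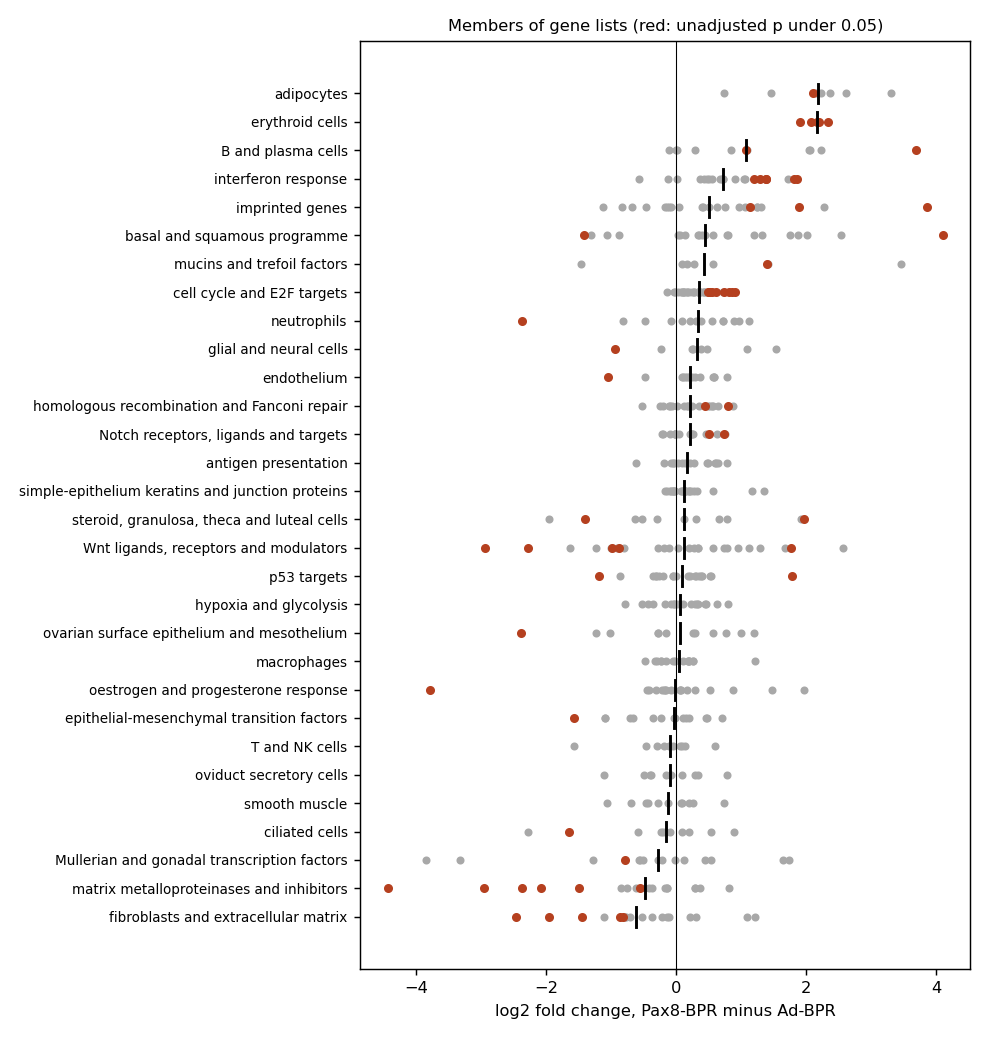
Log2 fold change (Pax8-BPR minus Ad-BPR, x axis) of each tested member (points) of the gene lists with at least 5 tested genes (y axis, ordered by median), with the list median as a black bar and members at an unadjusted p under 0.05 in red. Medians run from 2.18 (adipocytes) and 2.17 (erythroid cells) to -0.49 (metalloproteinases) and -0.62 (fibroblasts and matrix), and edgeR called 0 of the points after adjustment.

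Hormone-related genes varied within both models. Pgr, the progesterone receptor, was at 66.0, 67.3, 136, 41.5, 13.1 and 0.444 CPM in Ad-BPR. Pax8-BPR held 1.06, 13.0, 0.477, 13.7, 0.235 and 4.16 CPM, and oviduct 58.0 to 177. The ranges overlapped through Ad-BPR allograft replicates 3 and 4, and the fold was -3.78 ± 1.26 (SE; edgeR adjusted p = 0.349). Esr1, the oestrogen receptor, was at 141 ± 91.0 and 104 ± 83.4 CPM. Ovgp1, the oviduct glycoprotein, was low in all 12 tumours, 2.702 to 17.7 CPM in Ad-BPR and 1.45 to 9.64 in Pax8-BPR, against 3978 to 10300 in oviduct. None of the 11 secretory cell genes passed the unadjusted threshold (median -0.10). Of 11 ciliated cell genes 1 was lower (Tppp3), and of 21 basal and squamous genes 1 was higher (Krt5) and 1 lower (Lor). Krt5, a basal keratin, was at 20.1, 0.796, 3.14, 14.0, 52.8 and 140 CPM in Ad-BPR and at 398, 12.6, 411, 7.31, 581 and 936 in Pax8-BPR. Of the Pax8-BPR tumours, 4 lay above all of Ad-BPR and 2 within its range, and the Krt5 fold was 4.10 ± 1.25 (SE; edgeR adjusted p = 0.325; DESeq2 adjusted p = 0.029). The Wnt list had 4 lower members (Dkk2, Sfrp2, Fzd2 and Dkk3) and 1 higher (Wnt5b) of 26, with medians of 0.52 within GEMM tumours and -0.84 within allografts. The lower count was 1 without Pax8-BPR allograft replicate 2, and 2 without Ad-BPR GEMM replicate 2, Ad-BPR allograft replicate 1 or Pax8-BPR GEMM replicate 3. Dkk2, a secreted Wnt modulator, was at 32.0 to 265 CPM against 2.92 to 96.0. Of 23 imprinted genes 3 were higher and 0 lower, with a median of 0.51. The higher count was 6 without Pax8-BPR GEMM replicate 3 and 5 without replicate 4. Without Pax8-BPR GEMM replicate 2 and allograft replicate 2 together, 2 were higher and 1 lower, and the median was -0.07. H19, a maternally expressed non-coding RNA, was at 9.41, 1.08, 16.2, 2.84, 17.2 and 4.55 CPM in Ad-BPR and at 21.6, 90.5, 13.0, 6.23, 32.4 and 580 in Pax8-BPR. The H19 fold was 3.86 ± 0.98 (SE; edgeR adjusted p = 0.276; DESeq2 adjusted p = 0.0026), and 2.34 without allograft replicate 2, which held the 580.

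Markers of blood and other host cells moved beside these results. All 5 tested erythroid genes passed the unadjusted threshold as higher (median 2.17), and DESeq2 called 4 of them. The summed level of the list was 159, 102, 87.2, 92.3, 507 and 701 CPM in Ad-BPR, against 489, 588, 1297, 209, 1695 and 1076 for Pax8-BPR. Haemoglobin gene pairs are near-identical in sequence, so reads could be split between copies. The part of blood in other results was not tested. Of 11 B and plasma cell genes 2 were higher (5 without Ad-BPR allograft replicate 1, and 1 without Ad-BPR GEMM replicate 2, Pax8-BPR GEMM replicate 2 or Pax8-BPR allograft replicate 1), and the antibody gene Ighg2c was at 0.118 to 19.4 CPM against 0.146 to 363. All 9 adipocyte genes had estimates above 0 (median 2.18), of which 1, Fabp4, passed. With single tumours left out 0 to 3 passed, and the median was 0.88 without Pax8-BPR allograft replicate 1, while with all 12 tumours the summed level was 35.8 to 186 CPM against 26.9 to 745. Oocyte and pancreatic acinar genes were almost absent, with summed levels of at most 12.2 CPM.

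Of the 30 lists with at least 5 tested genes, 17 had medians of opposite sign in GEMM tumours and in allografts, immune and other lists alike. T and NK cell genes had a median fold of 1.88 in GEMM tumours and -2.48 in allografts, macrophage genes 0.97 and -1.08, neutrophil genes 1.69 and -1.13, and antigen presentation genes 1.3 and -0.84. In summed level, macrophage genes were at 1913 and 2029 CPM in the Ad-BPR GEMM tumours and 4041, 2990, 3315 and 5949 in those of Pax8-BPR. The 4 Ad-BPR allografts held 2602, 4478, 2545 and 2373 CPM. Both Pax8-BPR allografts lay below them, at 1309 and 1075 CPM, while all 4 Pax8-BPR GEMM tumours lay above both Ad-BPR GEMM tumours. Summed neutrophil levels overlapped between the models in both kinds. They were 2203 and 2716 CPM in the Ad-BPR GEMM tumours and 7519, 691, 1597 and 931 in those of Pax8-BPR. In allografts they were 5310, 6228, 370 and 501 CPM for Ad-BPR and 602 and 4036 for Pax8-BPR. Antigen presentation sums also overlapped in both kinds. Those of GEMM tumours were 4761 and 4286 CPM for Ad-BPR and 7324, 4354, 11620 and 18210 for Pax8-BPR. Those of allografts were 2793, 5617, 12920 and 4667 CPM for Ad-BPR and 5448 and 5970 for Pax8-BPR. The test of the difference between kinds called 0 of 15747 genes (0.0%) by edgeR, with 1303 (8.27%) at an unadjusted p under 0.05 (3.06% above 0 and 5.21% below 0 for allografts minus GEMM) and 198 calls by DESeq2. Within GEMM tumours alone edgeR called 0 genes (0.0%), with 1110 (7.05%; 3.67% higher and 3.38% lower) at the unadjusted threshold and 94 DESeq2 calls. Within allografts it called 0 (0.0%), with 1933 (12.3%; 6.2% higher and 6.08% lower) at that threshold and 411 by DESeq2.

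Folds followed gene length. The length implied for each gene by its deposited counts and TPM correlated with the fold at a Spearman rho of -0.26 across 15747 genes, which are not independent replicates. With the genes in 4 equal bins by length, the median fold was 0.19 in the shortest bin, 0.06 in the second, -0.0016 in the third and -0.12 in the longest. Of the 82 genes without overlap that were higher in Pax8-BPR, 42 were in the shortest bin and 6 in the longest. Of the 96 lower genes, 5 were in the shortest and 58 in the longest. Within a library, level and length correlated at 0.218 to 0.266 in Ad-BPR and 0.146 to 0.226 in Pax8-BPR. The part of length in the folds of single genes was not tested, and with the trend removed from each library 1610 genes were at the unadjusted threshold and 0 were called by edgeR.

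Folds also followed position in the genome. Genes with a mean of at least 1 CPM were grouped into windows of 20 Mb. The 138 windows with at least 20 such genes held 15052 of them. In 4 windows (2.9%) the 6 and 6 library medians did not overlap. The window with the highest median fold lay at 120 to 140 Mb of chromosome 6, which carries Emg1, Lpcat3, Ndufa9 and Dera. Its 149 genes had a median fold of 0.49, and 53 passed the unadjusted threshold as higher and 1 as lower. That is 36.2%, against 11.5% of all genes with a mean of at least 1 CPM. The deviation of the window from the mean of the 12 tumours was -0.01, -0.26, -0.11, -0.06, -0.61 and -0.45 in Ad-BPR (log2 scale). The Pax8-BPR deviations were 0.11, 0.38, 0.23, 0.28, 0.03 and 0.42. The other higher window without overlap lay at 140 to 160 Mb of chromosome 1, with Npl, where 22 of 64 genes were higher and 3 lower (median 0.41). Ptgs2 lies in this window too, with a fold of the opposite sign.

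Both windows on the other side were on the X chromosome. At 100 to 120 Mb, which carries Atrx and Hdac8, 23 of 65 genes passed as lower and 0 as higher (median -0.52). At 80 to 100 Mb the counts were 14 and 1 of 36 (median -0.51). Over the whole X chromosome, 86 of 480 genes were lower and 11 higher, with a median of -0.36. The median deviation of X-linked genes was 0.54 in Ad-BPR GEMM replicate 2 and 0.44 and 0.50 in allograft replicates 1 and 2, and -0.43 to 0.03 in the other 9 tumours. These 3 closely similar tumours hold the highest X-linked medians of the 12. Xist, the RNA that silences one X chromosome, was at 795, 1447, 1550, 984, 113 and 143 CPM in Ad-BPR and 426 to 1442 in Pax8-BPR, a fold of -0.01 ± 0.62 (SE; edgeR adjusted p = 0.996). The same 3 Ad-BPR tumours had raised medians on chromosomes 9 (0.31 to 0.35) and 14 (0.27 to 0.35) and lowered ones on chromosome 1 (-0.33 to -0.28). Pax8-BPR tumours had deviations of their own, such as -0.46 and -0.42 on chromosome 12 in GEMM replicates 3 and 4, -0.44 on chromosome 16 in allograft replicate 1 and -0.44 on chromosome 4 in allograft replicate 2. The part of position in the fold of any single gene was not tested.

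**Figure D5:**
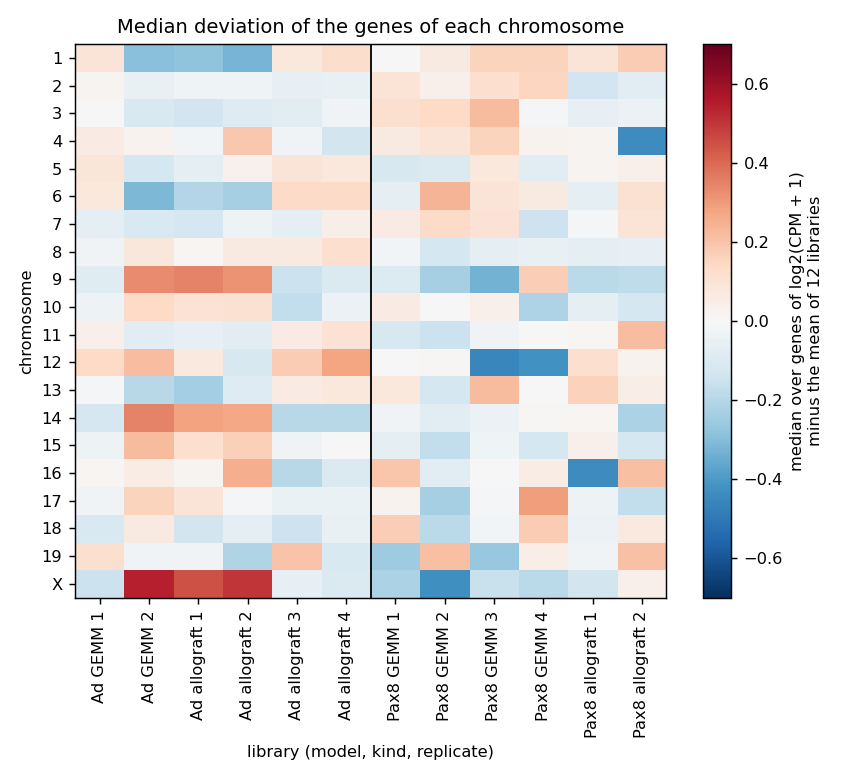
Median over the genes of each chromosome (rows) of log2(CPM + 1) minus the mean of the 12 tumours, in each library (columns, Ad-BPR left of the line and Pax8-BPR right), coloured from blue (-0.7) to red (0.7). Chromosome X is red in Ad-BPR GEMM 2 and allografts 1 and 2 (0.44 to 0.54), and chromosome 12 is blue in Pax8-BPR GEMM 3 and 4 (-0.46 and -0.42).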

How the data were processed

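Total RNA of mouse tumours and normal tissue was sequenced. RSEM expected counts and TPM values for 55450 genes were deposited by the authors. RSEM 1.3.1, STAR 2.7.0f and cutadapt 1.18 are named in the submitters' processing notes beside bcl2fastq and Picard, as are mm10 and GRCm38. Whether strand was used is not stated there. All 55450 gene IDs matched GENCODE M21.

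Expected counts were rounded and tested with edgeR 4.0.16 (R 4.3.3), TMM and filterByExpr (minimum count 10), which left 15747 genes and 99.7% of the counts. Kind was an additive covariate. A fit with 4 group means gave the within-kind and interaction tests. The scripts were tested on simulated data. Libraries were grouped by the model label. Alternatives were DESeq2 1.42.0, limma 3.58.1 on log2(TPM + 1), voom with quality weights, RLE factors, other filters, a test against a fold of 1.5, the fit of 26 tumours and tumours left out.

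The comparison, gene lists and rules were chosen with earlier results of these data known. The rule for named genes required a call, which none had, beyond 12 set genes. The same rule was therefore used without that requirement, after the values were seen: no overlap, at least 10 CPM and the 15 largest folds per direction, leaving out predicted genes. The genes of smallest adjusted p, list members at unadjusted p under 0.05, calls of the 26-tumour fit and collagen IV genes were added. Standard errors are the fold divided by the square root of F. Some items that these rules name are not reported here.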

Additional observations from a re-analysis of the deposited data

Results flagged for a closer look

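Named genes and summed gene lists were searched for a single tumour far from the other 3 of a group of 4 tumours. Of 176 values tested, 13 (7.39%) stood apart, and chance alone flags about 1 in 20. Among Ad-BPR allografts, replicate 3 stood high for Epcam (1020 CPM) and for the summed interferon response (2190 CPM). Replicate 2 stood high for macrophage genes (4478 CPM) and for metalloproteinases with their inhibitors (4861 CPM). Replicate 1 stood high for steroid, granulosa, theca and luteal genes (670 CPM) and for skeletal muscle genes (560 CPM), which were at most 6.56 CPM in the other 3 of that group. Among Pax8-BPR GEMM tumours, replicate 2 stood high for Dera (47.1 CPM) and Mrps35 (41.7 CPM). Replicate 3 stood low for Fam213a (41.5 CPM) and high for Zcchc3 (4.03 CPM). Replicate 1 stood low for Spcs2 (111 CPM) and apart for mucins and trefoil factors (1485 CPM) and neutrophil genes (7519 CPM, against 691 to 1597).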

How the results depend on the processing

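Most of the named genes were picked for their values in this same fit, so a kept direction is largely built in and is no separate support. None was called in the 12-tumour edgeR test, so keeping the side of the threshold means staying uncalled. Over 118 named genes and 3058 values under alternatives, 2954 kept direction and side of the threshold, 69 passed it where the 12-tumour edgeR test did not, and 35 changed sign. For 110 of the 118 genes no sign changed. Of the 12 genes set without regard to their values, Cdkn2a, Krt18, Pax8, Wt1 and Xist changed sign.

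Calls depended on the method. DESeq2 called 261 genes between the models, 94 within GEMM tumours, 411 within allografts and 198 for the difference between kinds. The fit of 26 tumours called 13 between the models and 38 within allografts. Leaving kind out, or averaging the within-kind differences, called 1. Without Pax8-BPR GEMM replicate 2 and allograft replicate 2 together, 1 gene was called within GEMM tumours. With single tumours left out, edgeR called 0 to 1 between the models and 0 to 2 within GEMM tumours. A group then left with 1 tumour was assumed to vary like the others. Of genes at the unadjusted threshold, 53.7% were higher, against 29.0% with limma on log2(TPM + 1), where the median fold was -0.0784. The causes were not tested.

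Signs turned for genes with folds near 0. With limma on log2(TPM + 1) the fold was -0.04103 for Cdkn2a, -0.06678 for Krt18 and 0.3255 for Xist, and with voom 0.04241 for Xist. With kind left out it was -0.007745 for Krt18, 0.002326 for Xist, 0.02234 for Col4a1 and 0.1271 for Col4a2. Without the 2 Pax8-BPR tumours it was 0.1688 for Wt1, 0.03479 for Col4a1 and 0.1241 for Col4a2. Without Ad-BPR allograft replicates 1, 2 and 4 it was -0.0004817 for Krt18, 0.3081 for Pax8, 0.2332 for Xist, 0.06756 for Col4a1, 0.1795 for Col4a2 and 0.1701 for Mmp12. With the length trend removed it was -0.001243 for Cdkn2a, 0.2315 for Xist and 0.0252 for Col4a2. These last 3 settings, and robust moderation in edgeR, were chosen after seeing the data. Single tumours left out gave -0.01696 to 0.3589 for Cdkn2a, -0.3345 to 0.04245 for Pax8, -0.1358 to 0.1715 for Wt1, -0.4875 to 0.3088 for Xist and -0.5467 to 0.07526 for Col4a2.

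No paired analysis was possible because replicate numbers were given in accession order and do not tie a Pax8-BPR tumour to an Ad-BPR tumour.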
